A study of Homo sapiens with 6 samples.

Results

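The mitochondrial ribosomal protein genes are nuclear genes for the proteins of the mitochondrial ribosome, and they were taken here as every protein-coding row whose symbol is MRPL or MRPS followed by a number, with an optional letter and without pseudogenes. This rule found 78 genes among the 60683 rows of the count table, of which 19910 were protein-coding. The MRPL symbols, given to proteins of the large subunit, covered 49 genes. The MRPS symbols, given to proteins of the small subunit, covered 29 genes. The members lie on 21 chromosomes, and 79 rows for pseudogenes of the family were left out.

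The mitochondrial ribosome translates the few mRNAs of the mitochondrial genome, which encode core subunits of the respiratory chain and of ATP synthase. Its large subunit holds the peptidyl transferase centre and the exit tunnel, and its small subunit binds the mRNA and decodes it. The rRNAs are transcribed from mitochondrial DNA, whereas every protein of the particle is encoded in the nucleus, translated in the cytosol and imported. Some of these proteins have counterparts in bacterial ribosomes, and others are specific to mitochondria.

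RNA was sequenced from 143B cells, a human osteosarcoma cell line, in 6 libraries. TPBC-PEG was given for 24 h in 3 libraries, and PBS for 24 h in the other 3. Both groups were the same cells in 6-well plates, without any stated genetic change. The labels conflict on the dose of TPBC-PEG, with 3 µM in the titles and 300 µM in the treatment protocol, and the design text names PDT without saying whether these cells were lit. The labels do not say that the replicates were separate cultures, so p-values measure the spread between these libraries, which may be technical. Library totals lay between 15726323 and 20486584 counts. Levels are given in CPM, a gene's share of the counts of the scaled library, as the mean of 3 libraries unless single libraries are listed. The mesenchymal marker VIM averaged 2344 CPM with TPBC-PEG and 2577 CPM with PBS, and the osteoblast regulator RUNX2 averaged 25.8 CPM with TPBC-PEG and 17.6 CPM with PBS, while of the type I collagen genes COL1A1 averaged 19.7 CPM with TPBC-PEG and 27.4 CPM with PBS and COL1A2 was near 0. Of the 6 tested markers of this list, 3 fell (VIM, SPARC, COL1A1), 2 rose (RUNX2, SPP1), and ALPL was not called. The epithelial marker EPCAM averaged 17.0 CPM with TPBC-PEG and 16.1 CPM with PBS, while the other epithelial markers and the blood and endothelial markers were at or near 0.

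Of the 78 members, 77 had enough counts to be tested, 48 of the large and 29 of the small subunit. MRPL53 had 0 counts in every library. In the large subunit, 26 of 48 genes fell with TPBC-PEG, or 54.2%, and 1 rose, at an adjusted p under 0.05 in edgeR's quasi-likelihood test. In the small subunit, 8 of 29 genes fell, or 27.6%, and 0 rose. Over all 15846 genes tested, 16.9% fell, 16.2% rose and 33.2% changed in either direction. Both subunits thus held a larger share of falling genes than the whole table, which also holds many less abundant genes. With protein-coding genes alone, 25 large and 7 small subunit genes fell, against 2526 of all 12931. Genes of matching level were not compared. Leaving out 1 library at a time gave 21 to 27 large and 5 to 7 small subunit genes that fell, with 5 in the small subunit without TPBC-PEG replicate 1, TPBC-PEG replicate 2 or PBS replicate 2. The difference between the subunits was not tested.

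The falls were small. Among the 26 large subunit genes that fell, the log2 fold changes of TPBC-PEG over PBS ran from -0.32 for MRPL41 to -0.11 for MRPL3, a decrease of 19.6% to 7.09%. Among the 8 small subunit genes that fell, they ran from -0.35 for MRPS12 to -0.15 for MRPS9. The median log2 fold change was -0.16 over the 48 large subunit genes and -0.08 over the 29 small subunit genes, against 0.01 over all genes tested. The fold change was negative for 41 of the 48 large and 25 of the 29 small subunit genes. Scaled by library size alone, 21 large and 5 small subunit genes fell, while over all genes 1971 fell and 3213 rose, in place of 2682 and 2574, and the median of all genes moved to 0.05. A test against a change of 1.2-fold, in place of no change, called 0 members.

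The remaining 42 tested members were not called. Of these, 21 belong to each subunit, and 6 had an unadjusted p under 0.05. Their fold changes were negative for 15 of 21 large and 17 of 21 small subunit genes.

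The values in the single libraries did not overlap between the groups for 30 of 48 large and 12 of 29 small subunit genes, or 62.5% and 41.4%, against 43.4% of all genes tested. The falling genes were called on these same libraries, so their separation adds no support to the calls. The groups were apart for 25 of the 26 falling large subunit genes and for 8 of 8 falling small subunit genes. The exception was MRPL42, where the highest TPBC-PEG library, at 129 CPM, lay above the lowest PBS library, at 128 CPM. Its call was lost in 12 of 20 settings, which leave out the test against 1.2-fold.

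**Figure D1:**
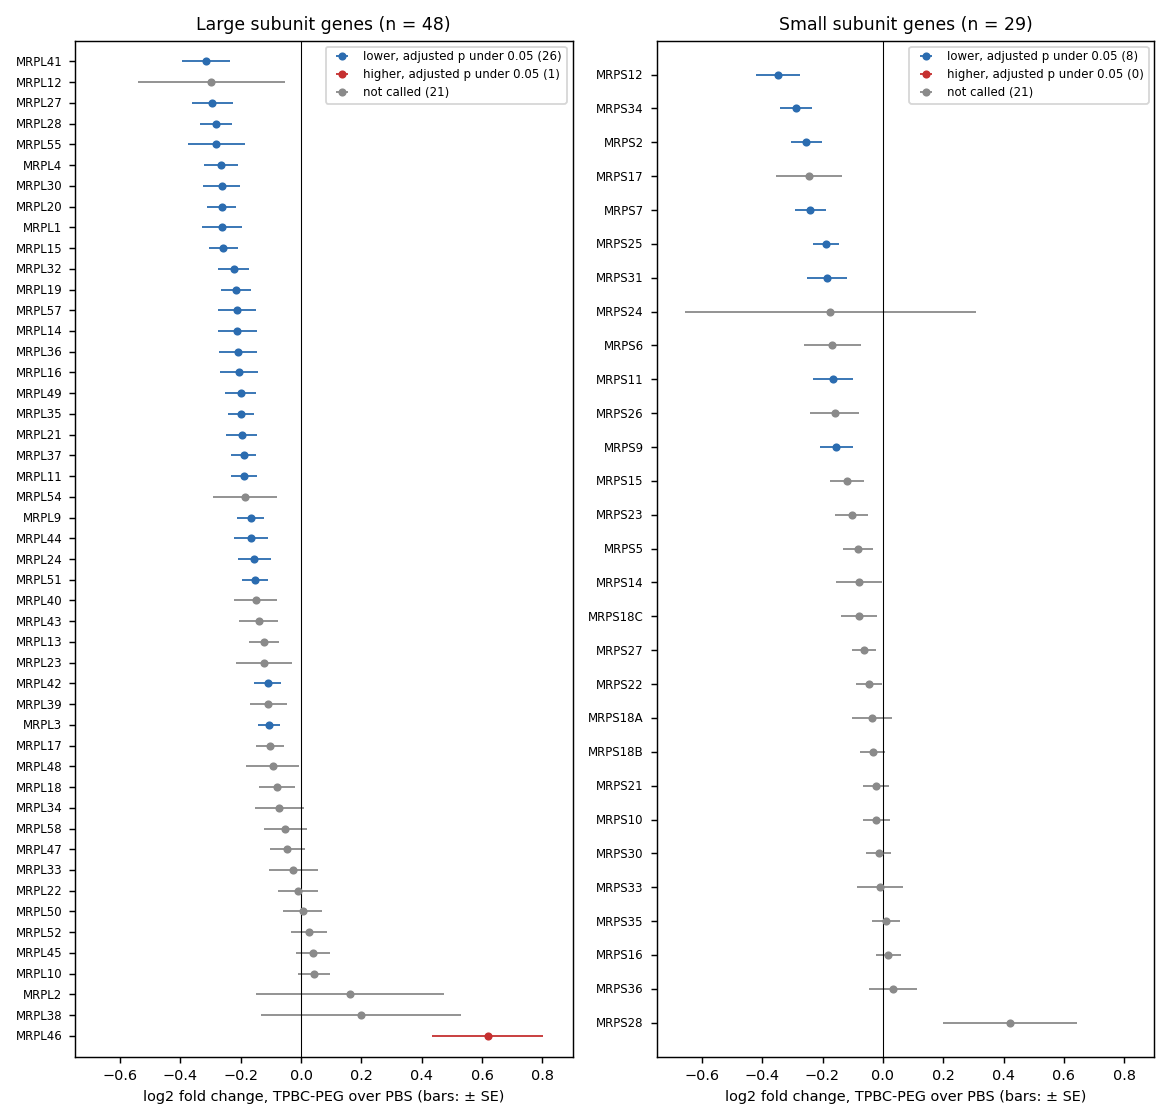
Log2 fold change of TPBC-PEG over PBS for each tested member (points) with its standard error (bars), large subunit genes on the left and small subunit genes on the right, ordered by size. Most points lie left of 0, with 26 large and 8 small subunit genes called lower, and MRPL46 is the member called higher.

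The scale of the family was read first from its sums. The 49 large subunit genes together had 2879, 2836 and 2856 CPM in TPBC-PEG libraries, against 3231, 3107 and 3178 CPM in PBS libraries. The 29 small subunit genes together had 1923, 1911 and 1889 CPM in TPBC-PEG libraries, against 2034, 2004 and 2040 CPM in PBS libraries. In both subunits every TPBC-PEG library lay below every PBS library. The large subunit averaged 2857 ± 21.0 CPM with TPBC-PEG and 3172 ± 62.2 CPM with PBS (SD, n = 3 each), a difference of -9.93%. The small subunit averaged 1907 ± 17.2 CPM with TPBC-PEG and 2026 ± 18.8 CPM with PBS, a difference of -5.85%. As shares of the raw counts, without the scaling, the large subunit differed by -7.17% and the small subunit by -2.96%. The groups did not overlap in either share. CPM are shares of the counts of the scaled library. Less RNA from these genes in each cell and fewer cells that express them can therefore not be told apart.

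The log2 ratio of the large to the small subunit sum was 0.58, 0.57 and 0.60 in TPBC-PEG libraries, against 0.67, 0.63 and 0.64 in PBS libraries. The mean of the TPBC-PEG libraries was lower by 0.064, and the groups did not overlap. Where each gene counted equally, as the mean log2 CPM over the members of a subunit, the difference was -0.032 and the groups overlapped. For TPM, counts are divided by exon length and set to the same total in each library, so the scaling of CPM no longer enters. In TPM the sum over the large subunit was 5.30% lower with TPBC-PEG, without overlap. That of the small subunit was 2512, 2496 and 2469 TPM in TPBC-PEG libraries and 2549, 2570 and 2461 TPM in PBS libraries, and these overlapped. The TPM values therefore compare with the shares of raw counts, which differed by -7.17% and -2.96%, rather than with CPM.

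**Figure D2:**
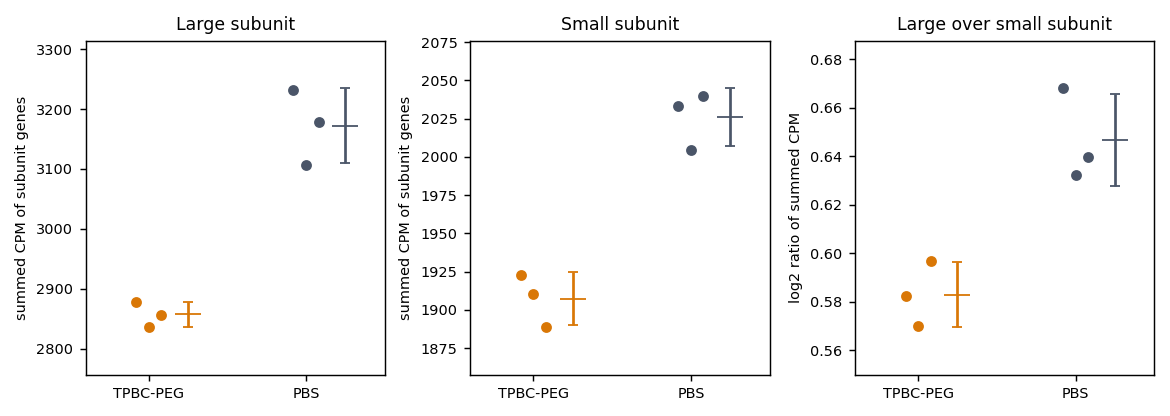
Summed CPM of the large subunit genes (left) and of the small subunit genes (middle), and the log2 ratio of the 2 sums (right), in each library (points) with the mean and SD of 3 libraries beside them. The axes do not start at 0, and in every panel the 3 TPBC-PEG libraries lie below the 3 PBS libraries.

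MRPS12 had the largest fall of the family. It encodes the counterpart of bacterial S12, a protein of the decoding centre, and lies on chromosome 19 at 38930548 to 38933162 (GRCh38, plus strand). It had 25.7, 23.5 and 24.8 CPM in TPBC-PEG libraries, against 29.9, 31.0 and 33.4 CPM in PBS libraries. All TPBC-PEG libraries were below all PBS libraries, with a log2 fold change of -0.35 ± 0.073 (SE) and an adjusted p of 0.000157. Of its exon bases, 16.3% also belong to SARS2, a mitochondrial seryl-tRNA synthetase gene, so some reads could come from either gene.

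MRPS34, a mitochondrion-specific protein of the small subunit, lies on chromosome 16 at 1771890 to 1773155 on the minus strand. It had 68.5, 61.6 and 67.3 CPM in TPBC-PEG libraries, against 78.1, 82.0 and 80.7 CPM in PBS libraries. The groups were apart, with a log2 fold change of -0.29 ± 0.052 and an adjusted p of 1.34e-05. MRPS2 had 63.4, 65.6 and 65.3 CPM with TPBC-PEG and 77.1, 81.5 and 72.9 CPM with PBS, and MRPS7, a protein of the small subunit's head, averaged 68.4 ± 4.12 CPM with TPBC-PEG and 80.8 ± 1.70 CPM with PBS (SD, n = 3 each). Their log2 fold changes were -0.25 and -0.24. The mitochondrion-specific MRPS25 and MRPS31 fell less, with log2 fold changes of -0.19 each. MRPS31, MRPS9 and MRPS11 were called by a small margin, with adjusted p of 0.0275, 0.0256 and 0.0478, and 7, 6 and 14 of 20 settings lost these calls. All 3 missed the threshold when libraries were scaled by size only, when the trend on expression level was removed, and without TPBC-PEG replicate 1, TPBC-PEG replicate 2 or PBS replicate 2. Leaving out PBS replicate 1 also ended the call of MRPS31, PBS replicate 3 that of MRPS9 and TPBC-PEG replicate 3 that of MRPS11.

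In the large subunit MRPL41, a mitochondrion-specific protein, had the largest fall. Its gene lies on chromosome 9 at 137551199 to 137552555 on the plus strand. It had 25.03, 26.2 and 24.5 CPM in TPBC-PEG libraries, against 34.3, 33.3 and 26.4 CPM in PBS libraries. The lowest PBS library stood just above the highest TPBC-PEG library, and the other PBS libraries were well above. The log2 fold change was -0.32 ± 0.079 with an adjusted p of 0.00156. With the trend of fold change on GC content removed, MRPL41 was no longer called, with an adjusted p of 0.141, and its transcript has the highest GC content of the members, at 71.9%.

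MRPL27, the counterpart of bacterial L27 near the peptidyl transferase centre, had 31.8, 31.7 and 30.5 CPM in TPBC-PEG libraries, against 35.5, 39.5 and 40.7 CPM in PBS libraries. MRPL28, which also has a bacterial counterpart, had 56.9, 56.9 and 59.5 CPM with TPBC-PEG and 69.8, 68.8 and 72.3 CPM with PBS. MRPL4, a protein of the exit tunnel, had 49.3, 49.8 and 48.7 CPM with TPBC-PEG and 58.0, 62.0 and 57.6 CPM with PBS. For these genes every TPBC-PEG library was below every PBS library. The calls held under all 20 settings compared, which leave out the test against 1.2-fold. Their log2 fold changes were -0.29 ± 0.068, -0.28 ± 0.052 and -0.26 ± 0.056. With the GC trend removed and a replicate block, they were -0.30, -0.18 and -0.15, the last with an adjusted p of 0.0423. MRPL30 fell by 0.26 and MRPL55 by 0.28 on the log2 scale. MRPL55 had the lowest CPM of the falling members named here. It had 13.7, 13.9 and 13.6 CPM in TPBC-PEG libraries and 18.0, 16.6 and 15.3 CPM in PBS libraries, and 5 of 20 settings lost its call. These were leaving out TPBC-PEG replicate 1 (adjusted p of 0.0519) or PBS replicate 1 (0.102), library size alone, and the GC trend removed without and with the replicate block.

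The large subunit genes of highest CPM were called lower too, by less, and the calls of MRPL3 and MRPL51 depend on the processing. MRPL3, the counterpart of bacterial L3, had 303, 299.8 and 304 CPM in TPBC-PEG libraries, against 329, 325 and 323 CPM in PBS libraries. Its log2 fold change of -0.11 ± 0.036 was among the smallest that were called, with an adjusted p of 0.0186, and it was lost without TPBC-PEG replicate 1 or TPBC-PEG replicate 2 (adjusted p of 0.0628 and 0.0805). It was also lost with library size alone, at 0.18, and with the trend on expression level removed, where its log2 fold change was -0.0035 and its adjusted p 0.959. The mitochondrion-specific MRPL37 and MRPL51 averaged 147 ± 2.82 and 132 ± 3.29 CPM with TPBC-PEG, against 168 ± 8.98 and 146 ± 9.23 CPM with PBS (SD, n = 3 each). The call of MRPL51 was lost without PBS replicate 3, at 0.0544, and with the trend on expression level removed, at 0.184, and that of MRPL37 was kept in all 20 settings. The small subunit genes of highest CPM were not called. MRPS27 averaged 173 ± 5.27 CPM with TPBC-PEG and 181 ± 2.72 CPM with PBS, and MRPS18B averaged 142 ± 3.16 CPM with TPBC-PEG and 146 ± 4.13 CPM with PBS. MRPS16, the counterpart of bacterial S16, averaged 141 ± 4.05 CPM with TPBC-PEG and 139.7 ± 3.61 CPM with PBS. The 95% intervals of these log2 fold changes were -0.14 to 0.01, -0.11 to 0.05 and -0.06 to 0.10, and that of MRPL3 was -0.18 to -0.04. CPM are not divided by exon length, and the order differs in TPM. There the highest small subunit genes in PBS libraries were MRPS21 (261), MRPS18B (258) and MRPS34 (244), of which MRPS34 fell. The highest large subunit genes were MRPL3 (400), MRPL51 (315) and MRPL15 (250), which all fell.

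**Figure D3:**
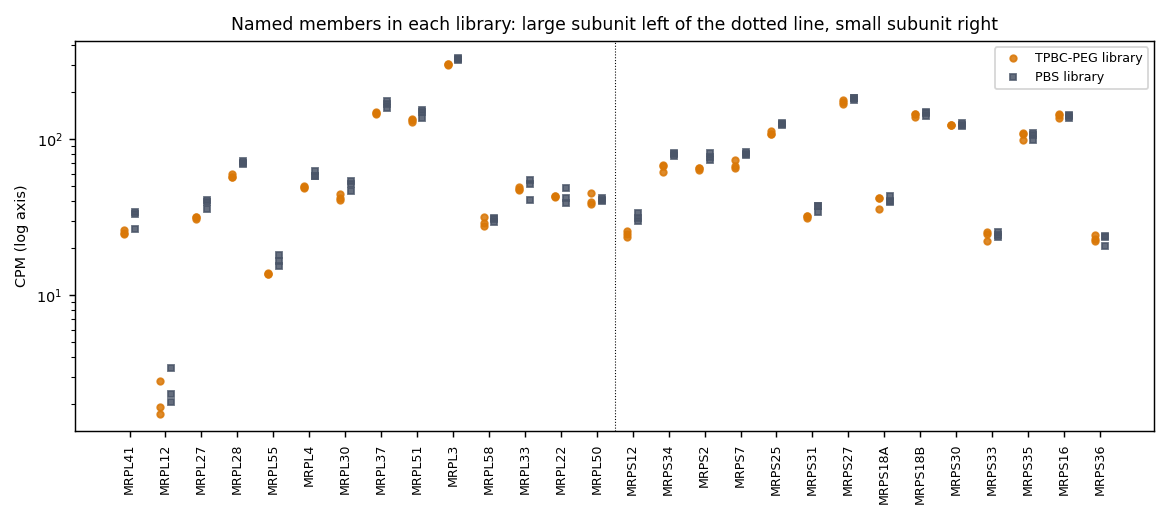
CPM of the named members in each library on a log axis, TPBC-PEG libraries as orange circles to the left of PBS libraries as grey squares, with large subunit genes left of the dotted line. The circles of MRPS12, MRPS34 and MRPL28 lie below the squares, and those of MRPS27, MRPS18B and MRPL50 overlap with them.

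Several members of intermediate abundance showed fold changes near 0. Among large subunit genes above 20 CPM the smallest changes were those of MRPL50, MRPL22 and MRPL33, with log2 fold changes of 0.01 ± 0.065, -0.01 ± 0.067 and -0.03 ± 0.080. MRPL22, a protein of the exit tunnel, had 42.8, 42.8 and 43.3 CPM in TPBC-PEG libraries, within the 48.7, 38.8 and 42.1 CPM of the PBS libraries. Among small subunit genes the smallest were those of MRPS33, MRPS35 and MRPS30, between -0.01 and 0.01, each with overlapping groups.

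The symbol does not always give the place of the protein. MRPS18A and MRPS30 are assigned to the large subunit in the structures of the human ribosome, and MRPS36 is now known as KGD4, a subunit of the 2-oxoglutarate dehydrogenase complex. None of the 3 was called, with log2 fold changes of -0.04, -0.01 and 0.03. MRPS30 had 123, 122 and 123 CPM in TPBC-PEG libraries and 126, 122 and 124 CPM in PBS libraries. Counted by place, 26 of 50 large subunit genes and 8 of 26 small subunit genes fell, with median log2 fold changes of -0.15 and -0.11. MRPL58, a peptidyl-tRNA hydrolase built into the large subunit, averaged 29.4 ± 1.91 CPM with TPBC-PEG and 30.4 ± 0.844 CPM with PBS and was not called.

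Members with a bacterial counterpart and those specific to mitochondria both fell in part. Of 46 with a bacterial counterpart, 24 fell and 0 rose, and their median log2 fold change was -0.17. Of the 30 tested mitochondrion-specific members, 10 fell and 1 rose, with a median of -0.11. Within the large subunit by place, 19 of 30 with a counterpart and 7 of 20 without one fell. Within the small subunit, the numbers were 5 of 16 and 3 of 10. No difference between these classes was tested.

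MRPL46 alone of the 77 rose. This mitochondrion-specific protein of the large subunit is named because it was the single call in that direction, a choice made after its values were seen. It had 5.09, 3.86 and 5.39 CPM in TPBC-PEG libraries, against 3.18, 2.94 and 3.15 CPM in PBS libraries. The groups were apart, with a log2 fold change of 0.62 ± 0.184 and an adjusted p of 0.00681. The gene lies on the minus strand of chromosome 15 at 88459476 to 88467419, head to head with MRPS11 on the plus strand at 88467453 to 88480773. MRPS11 had 36.4, 37.0 and 33.8 CPM with TPBC-PEG and 38.7, 43.0 and 38.7 CPM with PBS, and its call as lower was lost in 14 of 20 settings.

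MRPL46 belongs to 7 members with under 10 CPM in PBS libraries, the others being MRPL2, MRPL12, MRPL38, MRPL53, MRPS24 and MRPS28. All 7 share over 10% of their exon bases with another annotated gene, as do 26 of the 78 members. For MRPL12, a stalk protein that contacts translation factors, 68.2% of exon bases are shared, and it had 1.90, 1.74 and 2.82 CPM in TPBC-PEG libraries and 3.39, 2.05 and 2.33 CPM in PBS libraries. MRPL12, MRPS24 and MRPS28 share exons with a row on the same strand that has 0 counts in all libraries. MRPL53 shares 45.2% of its exon bases with CCDC142, a gene that averaged 9.16 CPM with TPBC-PEG and 9.39 CPM with PBS. The part of read assignment in these low values was not tested. The standard errors of the tested genes among the 7 were at least 0.184, against at most 0.111 for the other members, so that only large changes could have been called.

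The fold change moved with base composition among the members, and with the level across all genes but not among the members. Across the 77 tested members, Spearman's rho between the log2 fold change and the transcript's GC content was -0.37, against -0.15 across all genes tested. With PBS level it was -0.01 across the members and -0.25 across all genes, and the members are more abundant than most genes, with a median of 53.7 CPM in PBS libraries against 19.2 CPM. Genes of 1 set of libraries are not independent, and these values only describe the 6 libraries. With the trend on expression level removed, 20 of 48 large and 5 of 29 small subunit genes fell, against 2057 of all 15846 genes tested. The medians were then -0.12 for the large and -0.06 for the small subunit. With the GC trend removed, 22 large and 7 small subunit genes fell, against 2383 of all genes tested. The medians of the subunits were then closer, at -0.13 for the large and -0.10 for the small subunit.

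**Figure D4:**
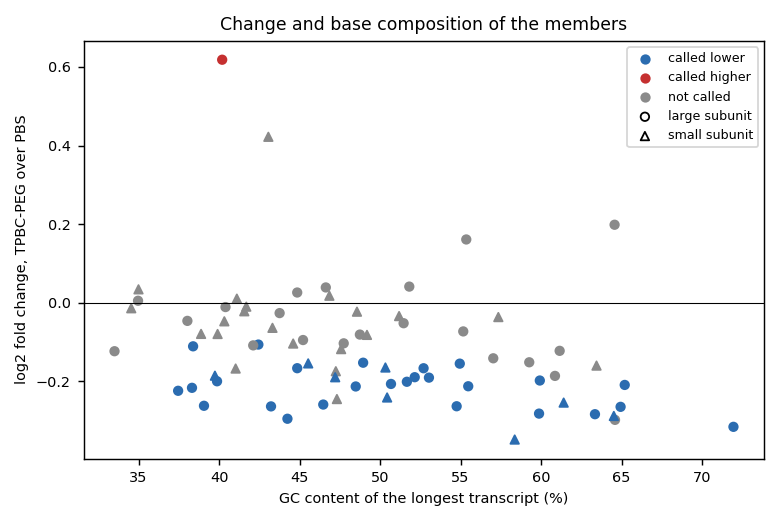
Log2 fold change of TPBC-PEG over PBS of each tested member against the GC content of its longest transcript (percent), circles for large and triangles for small subunit genes, coloured by call. The called falls spread over most of the GC range, and MRPL41 lies at its upper end with 71.9%.

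Promoters of the members were read from RefSeq, since transcription factors known to act on nuclear genes for mitochondrial proteins recognise short motifs there. The table of 300-base promoters, from 250 bases before to 50 bases after the start in GRCh38.p14, held 69 of the 78 members. The exact letters of 4 motifs were searched on both strands. These were CCGGAAG, bound by ETS factors such as GABPA, GCGCATGC as the core of the NRF1 site, AAGATGGC for YY1, and TGATGNAA for ATF4 with a C/EBP partner such as DDIT3. Among members named for their change or abundance, some held no match in the 150 bases upstream and are not printed. Of these, MRPS12, MRPL41, MRPL28, MRPL4, MRPL37, MRPS2, MRPS7 and MRPS25 fell. MRPL50, MRPS27, MRPS16, MRPS33, MRPS35 and MRPS30 were not called. Over the full 300 bases, MRPS12, MRPL28, MRPS7, MRPL50, MRPS27, MRPS16, MRPS33 and MRPS30 do hold an ETS or YY1 match. Upstream stretches of 150 bases are given for 4 genes that fell and 3 that were not called. They were chosen to set matches in both kinds of gene side by side, with motif matches in capitals. MRPL3, MRPL30 and MRPS31 also fell and hold an ETS match upstream, but are not printed. MRPL51, MRPL22 and MRPS18B each hold a YY1 match that is not within the printed bases.
MRPL27: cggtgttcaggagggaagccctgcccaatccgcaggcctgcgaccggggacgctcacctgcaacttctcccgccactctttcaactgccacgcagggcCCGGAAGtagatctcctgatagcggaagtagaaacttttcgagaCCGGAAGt
MRPL51: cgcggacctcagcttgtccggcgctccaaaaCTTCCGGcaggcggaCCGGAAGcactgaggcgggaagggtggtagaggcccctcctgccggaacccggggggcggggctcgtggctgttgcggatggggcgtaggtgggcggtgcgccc
MRPL55: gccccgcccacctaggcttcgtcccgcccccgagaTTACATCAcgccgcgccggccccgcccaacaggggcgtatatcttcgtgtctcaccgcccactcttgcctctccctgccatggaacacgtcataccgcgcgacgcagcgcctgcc
MRPS34: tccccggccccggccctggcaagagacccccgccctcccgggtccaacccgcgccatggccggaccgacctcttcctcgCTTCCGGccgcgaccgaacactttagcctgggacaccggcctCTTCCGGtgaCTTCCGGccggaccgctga
MRPL22: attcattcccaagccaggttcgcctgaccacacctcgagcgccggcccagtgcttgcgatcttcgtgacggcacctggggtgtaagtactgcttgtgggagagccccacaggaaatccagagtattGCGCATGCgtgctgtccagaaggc
MRPL33: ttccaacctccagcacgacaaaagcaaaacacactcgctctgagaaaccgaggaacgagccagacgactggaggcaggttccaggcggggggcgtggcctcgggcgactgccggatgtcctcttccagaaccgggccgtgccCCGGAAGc
MRPS18B: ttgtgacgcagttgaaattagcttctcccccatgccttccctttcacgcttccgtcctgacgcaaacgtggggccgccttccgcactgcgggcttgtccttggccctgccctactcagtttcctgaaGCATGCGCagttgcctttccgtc
MRPL27 (chr17:50373185-50373334 on the minus strand), MRPL51 (chr12:6493263-6493412 on the minus strand) and MRPS34 (chr16:1773135-1773284 on the minus strand) fell, and their capitals are ETS motifs. MRPL55 (chr1:228109300-228109449 on the minus strand) fell and holds the ATF4 motif on its other strand. MRPL33 (chr2:27771569-27771718 on the plus strand) holds an ETS motif, and MRPL22 (chr5:154940923-154941072 on the plus strand) and MRPS18B (chr6:30617690-30617839 on the plus strand) the NRF1 core, and none of these 3 was called.

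Of the 69 member promoters, 42.0% held the ETS motif, against 10.7% of all 27305 promoters taken as 1 for each gene and 18.6% of the promoters of tested genes. The YY1 motif was in 28.99% of member promoters, against 3.03% of all and 5.21% of those of tested genes. The NRF1 core was in 8.70%, 3.27% and 5.40%, and the ATF4 motif in 1.45%, 3.67% and 1.68% of the same sets. Large and small subunit promoters held the ETS motif at like shares, 40.5% of 42 and 44.4% of 27. Of the 31 promoters of genes that fell, 32.3% held it, against 50% of the 36 promoters of tested genes that were not called. A match is only a match of letters and does not show binding.

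The factors named with these motifs were themselves measured. NRF1 averaged 17.8 ± 2.16 CPM with TPBC-PEG and 20.3 ± 1.65 CPM with PBS (SD, n = 3 each). It was not called, with a log2 fold change of -0.20 and an adjusted p of 0.0856, and its groups overlapped. GABPA, the DNA-binding subunit of GABP, averaged 48.8 ± 2.03 CPM with TPBC-PEG and 55.6 ± 1.86 CPM with PBS, and YY1 averaged 205 ± 3.00 CPM with TPBC-PEG and 228 ± 4.04 CPM with PBS (SD, n = 3 each). Both fell, as did the GABP partner genes GABPB1 and GABPB2 and PPRC1, a coactivator related to PGC-1. PPRC1 had the largest fall of these, with 103, 94.3 and 109.6 CPM in TPBC-PEG libraries and 116, 129.8 and 127 CPM in PBS libraries, a log2 fold change of -0.28 ± 0.050. Of the 14 regulators listed, 5 fell (35.7%) and 4 rose (28.6%), against 16.9% and 16.2% of all genes tested. Without TPBC-PEG replicate 1, 3 fell, and GABPB1 (0.0814) and GABPB2 (0.0594) missed the threshold. GABPB1 missed it as well without TPBC-PEG replicate 2, at 0.0889, and under scaling by library size, where 3 of the list fell.

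The 4 that rose were DDIT3, PPARGC1A, ATF4 and MYC. DDIT3, a transcription factor of the integrated stress response, had 21.2, 26.6 and 17.4 CPM in TPBC-PEG libraries, against 3.23, 3.66 and 3.41 CPM in PBS libraries, a log2 fold change of 2.67 ± 0.143. Of its exon bases, 39.6% are shared with another annotated gene. ATF4, the main factor of the same response, had 614, 655 and 615 CPM with TPBC-PEG and 429, 437 and 459.9 CPM with PBS. The groups were far apart for both. PPARGC1A, which encodes the coactivator PGC-1 alpha, rose at a low level, with means of 1.99 CPM with TPBC-PEG and 1.12 CPM with PBS, a call lost without TPBC-PEG replicate 2 (0.149) or PBS replicate 1 (0.0845), and by DESeq2.

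The list of mitoribosomal proteins with other symbols has 5 genes, and 3 of them fell, or 60%, against 16.9% of all genes tested. AURKAIP1, a small subunit protein, had 64.0, 62.5 and 63.0 CPM in TPBC-PEG libraries, against 86.4, 80.2 and 74.4 CPM in PBS libraries. Its log2 fold change of -0.35 ± 0.053 was close to that of MRPS12. GADD45GIP1, of the large subunit, and PTCD3, of the small subunit, fell by 0.20 and 0.11 on the log2 scale. GADD45GIP1 lost its call on leaving out any of 3 libraries (TPBC-PEG replicate 1, TPBC-PEG replicate 3, PBS replicate 1) and PTCD3 on leaving out any of 5 (all but TPBC-PEG replicate 3), with adjusted p up to 0.155 and 0.177, so that 1 gene of the list fell without TPBC-PEG replicate 1. The calls of both were also lost under scaling by library size and by DESeq2. With the GC trend removed GADD45GIP1 had a log2 fold change of -0.1249 and was not called, and with the trend on expression level removed PTCD3 had -0.0566 and was not called. CHCHD1 had a log2 fold change of -0.19 and DAP3 of 0.02, and neither was called.

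The wider machinery of mitochondrial translation was mixed. Over all genes tested, 16.9% fell and 16.2% rose. The falling shares here were 28.6% of translation factors, 31.0% of assembly factors and 41.2% of mitochondrial aminoacyl-tRNA synthetases. Of 14 translation factors, 4 fell and 0 rose, and the median log2 fold change was -0.01. GFM1, the elongation factor that moves the ribosome along the mRNA, averaged 178 ± 4.03 CPM with TPBC-PEG and 215 ± 2.49 CPM with PBS. TUFM, which delivers aminoacyl-tRNA to the ribosome, averaged 208 ± 11.8 CPM with TPBC-PEG and 244 ± 3.09 CPM with PBS (SD, n = 3 each), and MTFMT, which formylates the initiator tRNA, also fell. Without TPBC-PEG replicate 1 or TPBC-PEG replicate 3, 2 factors fell, and MTFMT was among the lost calls, as it was without PBS replicate 2 and under scaling by library size, where 2 factors fell. Of 29 tested assembly factors, 9 fell, with MTERF3, DDX28 and RCC1L the largest falls, and TFB1M, which methylates the small subunit rRNA, rose by 0.28 on the log2 scale. The call of RCC1L was lost without TPBC-PEG replicate 3, PBS replicate 2 or PBS replicate 3, under scaling by library size, and once the GC trend was removed, where its log2 fold change was -0.1277 and its adjusted p 0.155. That of TFB1M was lost by DESeq2, without the filter on low counts, and on leaving out any library other than TPBC-PEG replicate 3. Of 17 mitochondrial aminoacyl-tRNA synthetases, 7 fell and 1 rose, and 4 fell without TPBC-PEG replicate 2, as under scaling by library size. The rise, of RARS2, was lost on leaving out any library other than TPBC-PEG replicate 3, by DESeq2, without the filter on low counts and with the GC trend removed. EARS2, the glutamyl enzyme, fell most, with 34.9, 36.0 and 34.8 CPM in TPBC-PEG libraries and 46.6, 47.8 and 45.1 CPM in PBS libraries. FARS2 fell by 0.34 on the log2 scale, a call lost on leaving out any of 4 libraries and by DESeq2.

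Genes of mitochondrial transcription and RNA processing had 12 of 21 members that fell and 0 that rose, and their median was -0.16. The falling share was 57.1%, against 16.9% of all genes tested. TEFM, an elongation factor of the mitochondrial RNA polymerase, fell by 0.35, a call lost without TPBC-PEG replicate 1 (0.113) or PBS replicate 2 (0.0565). TRMT10C, a subunit of mitochondrial RNase P, and ELAC2, which trims tRNA ends, fell by 0.31 and 0.29. Among the 13 mRNAs of the mitochondrial genome, 9 fell, or 69.2%, and 0 rose, with a median of -0.32. MT-CO2, a core subunit of cytochrome c oxidase, had 5477, 5354 and 5464 CPM in TPBC-PEG libraries, against 6546, 6870.3 and 7513 CPM in PBS libraries. The count of falling mRNAs was 3 with the trend on expression level removed. MT-ND6 had the largest fall of the list, with a log2 fold change of -0.60 ± 0.133. Its call was lost on leaving out any of 4 libraries, with adjusted p up to 0.11.

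The rRNAs of the ribosome were less clear. MT-RNR2, the large subunit rRNA, had 7202, 7451 and 7609 CPM in TPBC-PEG libraries, against 8341, 7536 and 8781 CPM in PBS libraries. It was called lower with a log2 fold change of -0.15 ± 0.043 and an adjusted p of 0.00631, but the groups overlapped and the call was lost without TPBC-PEG replicate 1, at 0.0638. With the trend on expression level removed the value was 0.06 and not called. MT-RNR1, the small subunit rRNA, was not called, at -0.07 ± 0.037, but was called lower without PBS replicate 2. The sources used here do not say whether rRNA was removed before sequencing.

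The proteins of the cytosolic ribosome give the nearest comparison outside mitochondria. Of 77 tested genes, 12 fell, or 15.6%, and 7 rose, or 9.09%, and the median log2 fold change was -0.01. The share that fell was close to the 16.9% of all genes tested, of which 16.2% rose. RPL3 had 1592, 1671 and 1606 CPM in TPBC-PEG libraries, against 1381, 1453 and 1424 CPM in PBS libraries, a log2 fold change of 0.19 ± 0.036. RPL36A, RPS10 and RPL21 had the largest falls, with means of 24.9, 6.66 and 34.5 CPM in PBS libraries against a median of 701 CPM over the list. Cytosolic ribosomal protein genes have near-identical pseudogenes, so reads of these genes may have been split. The count of rising genes moved to 36 with the trend on expression level removed and to 14 without PBS replicate 1 or under scaling by library size. The difference from the mitochondrial family was not tested.

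**Figure D5:**
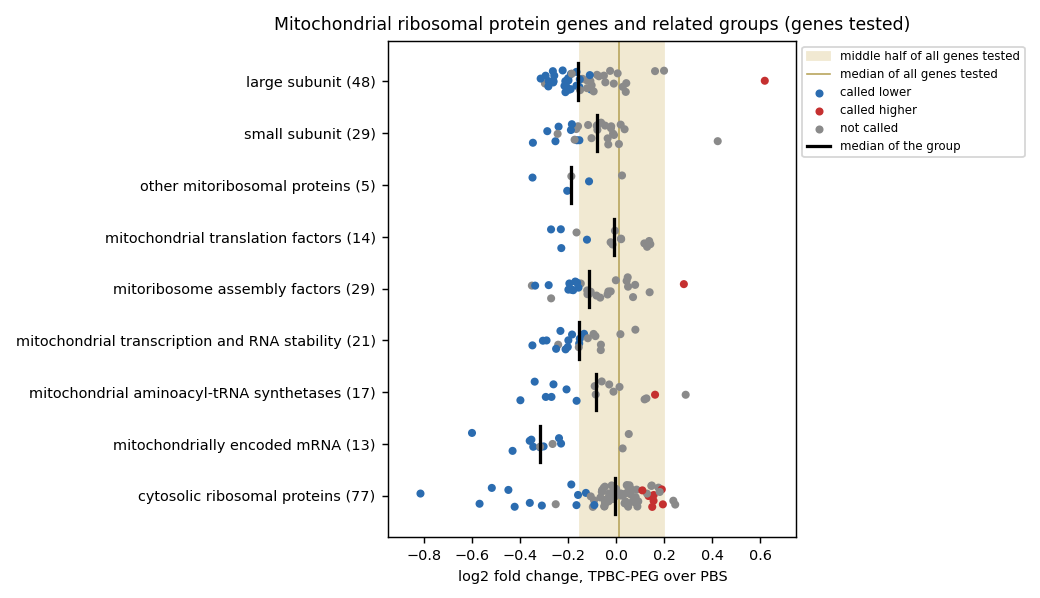
Log2 fold change of TPBC-PEG over PBS for the genes tested in each group (points, coloured by call) with the group's median (black line), over the middle 50% of all genes tested (shaded). The median of the mitochondrially encoded mRNAs lies furthest left, at -0.32, that of the large subunit at -0.16, and that of the cytosolic ribosomal proteins near 0.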

How the data were processed

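RNA-seq counts per gene were analysed for 6 libraries of 143B cells, grouped by the sample titles. The authors deposited 1 table of raw counts with 60683 rows and a column for each library, and 0 rows named no gene. The submitters' processing notes name HISAT2 and the GRCh38 build. Of the annotation release, the counter, the strand setting and the fate of multi-mapped reads nothing is stated in the labels used here, so reads of overlapping genes and of pseudogenes may be split or lost. Of the rows, 30572 had a count of 0 in all libraries. Counts of replicates differed by more than sampling noise, so all 6 libraries were kept as separate replicates.

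The deposited counts were tested in edgeR 4.0.16 (limma 3.58.1, R 4.3.3). filterByExpr with a minimum count of 10 and a minimum total of 15 left 15846 genes, libraries were scaled by TMM, and the quasi-likelihood test with robust estimation compared TPBC-PEG with PBS. Adjusted p are Benjamini-Hochberg values over all genes tested, and those under 0.05 were called. The biological coefficient of variation was 4.19%. CPM use the TMM-scaled library sizes. TPM use union exon lengths from GENCODE and sum to the same total in every library, without TMM. The script was tested on simulated data. Of 50 genes changed 1.25-fold there, 56% were recovered, and of 50 changed 1.5-fold, 90%. Of 185 calls, 12 were false. A gene that was not called may therefore have changed by about 1.25-fold. Intervals of fold changes come from their standard errors.

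The members, gene lists and tests were chosen with earlier results of these data known. The genes named are, in each subunit, up to 6 called members in each direction with the largest change at a mean of at least 5 CPM. They are also the 3 of highest CPM, the 3 with the smallest change above 20 CPM, and MRPS18A, MRPS30, MRPS36, MRPL12 and MRPL58. In the other lists they are up to 3 called genes in each direction, with both rRNAs. GABPA, YY1, NRF1, MYC, MRPL46, MRPS11, MRPL42, MRPS9, CHCHD1, DAP3, SARS2 and CCDC142 are named beside these. So are MRPL2, MRPL38, MRPL53, MRPS24 and MRPS28, of low count, and the markers VIM, RUNX2, COL1A1, COL1A2, SPARC, SPP1, ALPL and EPCAM. Promoters came from RefSeq, with the first listed start of each gene. The alternatives were other scalings, filters, tools (DESeq2 1.42.0, limma-voom), trends removed, a replicate block, and leaving out each library.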

Additional observations from a re-analysis of the deposited data

How the results depend on the processing

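Over the 22 alternatives other than the test against 1.2-fold, 19 to 27 large and 4 to 8 small subunit genes fell, and the medians stayed negative, from -0.174 to -0.117 for the large and from -0.115 to -0.038 for the small subunit. The test against 1.2-fold called 0 large subunit genes lower, 0 higher and 0 small subunit genes lower. With library size alone, the medians were -0.1168 for the large and -0.0378 for the small subunit and 5 small subunit genes fell. With the expression level trend removed, the large subunit median was -0.1219 and 5 small subunit genes fell, while 2057 of all genes tested fell. Without genes that share over 10% of their exon bases with another gene, 0 large subunit genes rose, since MRPL46 is left out, and 4 of 18 small subunit genes fell. The difference in the log2 ratio of large to small subunit was -0.0323 by mean log2 CPM. Leaving out each library in turn gave 21 to 27 large and 5 to 7 small subunit genes that fell, with 5 small subunit genes without TPBC-PEG replicate 1, TPBC-PEG replicate 2 or PBS replicate 2. The causes were not tested.

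Of the genes that fell, 14 of 26 in the large and 5 of 8 in the small subunit kept their call in all 20 settings compared. The rise of MRPL46 was kept in them too, and no called member changed sign in them. The 20 settings leave out the test against 1.2-fold. The naming rule picked 62 genes, of which MT-ND5, AARS2, RPL37A and RPS18 are not described above. Over 1238 comparisons of these 62 with an alternative, 1139 stayed on the same side of the threshold, 96 lost the call and 2 gained it. Of the called genes 1 changed sign, MT-RNR2 at 0.0588 with the expression level trend removed. The 1139 include 40 comparisons in which 1 of 12 genes that were not called changed sign, with MRPL50 the most frequent, in 8. Same-numbered libraries did not deviate together (correlations of 0.0034, 0.065 and -0.015), so the replicate numbers were not taken to pair them. With the replicate block, 26 large and 8 small subunit genes fell, and with the GC trend also removed 22 and 7. The standard errors of the falling genes were 0.036 to 0.095 in the large subunit.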
